A study of Drosophila melanogaster with 9 samples.

Results

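The autophagy (Atg) and vacuolar proton pump (Vha) genes of the larval fat body are described here in RNA-seq libraries made after a pulse of constitutively active insulin receptor. The members are the 35 genes, of 10372 in the table, whose symbol begins with Atg (11 genes) or Vha (24 genes). No gene of the table had a value of 0 in any library. That all 35 had reads in each library is therefore a property of the table. All larvae were Drosophila melanogaster females in the third instar, the last larval stage, and all carried hs-GAL4, a driver that makes the GAL4 activator after heat. In the group InRCA_HS, offspring of males from stock 8263, which bring the GAL4-dependent transgene UAS-InR.A1325D for an always active receptor, spent 30 min at 37 °C and recovered for 6 h. InRCA_noHS was the same cross with a mock treatment, a change of vial at 25 °C. In control_HS, offspring of males from stock 6598 (y1w1118), without the transgene, had the same heat and recovery. Each group had 3 libraries of total RNA depleted of ribosomal RNA, from fat bodies isolated by shearing and centrifugation. Nothing in the labels tells whether these 3 were separate cultures or animals, so the p-values reflect the spread among these samples alone, and that spread may be technical. A control cross without heat was not analysed here, so in InRCA_HS against InRCA_noHS the transgene's induction and the heat cannot be told apart. InRCA_HS against control_HS differs in the stock of the males (8263 and 6598) as well as in the active receptor. InRCA_noHS against control_HS differs in stock, in heat and in InR RNA, which was higher in InRCA_noHS (given below). These too cannot be told apart, also where both transgene groups differ from control_HS.

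Autophagy wraps cytoplasm in a double membrane, the autophagosome, and hands it to the lysosome for breakdown. The Atg1 kinase complex starts it, a lipid kinase complex with Atg6 marks the membrane, Atg2, Atg9 and Atg18 supply lipid, and conjugation enzymes couple the ubiquitin-like proteins Atg8a and Atg12 to their targets. The V-ATPase, built from a cytosolic V1 sector that splits ATP and a membrane V0 sector that carries protons, acidifies the lysosome. In the larval fat body, insulin and TOR signalling is known to hold autophagy back, and starvation or the moulting hormone ecdysone induces it.

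RNA levels of most Atg and Vha genes differed little between the groups. Vha100-4, a rare version of the proton channel's a subunit, fell in InRCA_HS against control_HS, and Atg1, the kinase that starts autophagy, fell in InRCA_HS against InRCA_noHS. In InRCA_HS against control_HS, 1 of 35 members passed the test (adjusted p under 0.05), where 2.43% of all genes did (1.11% higher and 1.32% lower). In InRCA_HS against InRCA_noHS it was also 1 of 35, against 2.55% of all genes (1.75% higher and 0.800% lower). In InRCA_noHS against control_HS 0 of 35 passed with limma, against 7.03% of all genes (3.25% higher and 3.78% lower), and edgeR called 0. An unadjusted p under 0.05 was found there for 7 of 35 members and for 2453 of all 10372 genes. The 3 comparisons share libraries. Where edgeR is not named, every test here is limma's, on log2(adjusted count + 1), with Benjamini-Hochberg adjustment over all 10372 genes. An adjusted count is the authors' read count after scaling to a common library size, and fold changes on this scale understate changes of genes with low values.

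A library held between 8762943 and 17601387 recovered whole reads (InRCA_noHS replicate 1 and InRCA_HS replicate 3), and the counts of called genes moved with single libraries, most of all with control_HS replicate 1. The receptor gene InR checked the labels: its adjusted counts averaged 58288 ± 9633 in InRCA_HS, 2537 ± 986 in InRCA_noHS and 785 ± 41.8 in control_HS (SD, n = 3 each, as for every mean below). Without heat, InRCA_noHS also exceeded control_HS (adjusted p = 0.00467, log2 fold change 1.63). InRCA_noHS is therefore not a baseline free of raised InR RNA. Whether these reads came from the transgene was not tested. Of 8 fat body markers, 7 were in the table, and they took 23.2% to 31.0% of a library's adjusted counts. Fbp2 alone among them passed a test. It averaged 127677 in InRCA_HS, 171113 in InRCA_noHS and 8223 in control_HS (adjusted p against control_HS 0.000167 and 6.19e-05). Among the salivary gland markers below, Sgs5 alone passed, also against control_HS (means 19420, 10380.5 and 988, adjusted p 0.000706 and 0.00134). The cause of these differences was not tested. Markers of other tissues were in the table too. No gene of the table had a value of 0 in any library (lowest value 0.108), so being above 0 tells nothing about a tissue. Malpighian tubule markers (8 of 9) took 0.0706% to 0.111%, gut markers (13 of 14) 0.0592% to 0.181%, hemocyte markers (10 of 11) 0.0654% to 0.191%, muscle markers (10 of 10) 0.162% to 0.428% and salivary gland markers (7 of 7) 0.0932% to 1.55%. Of 4 testis markers 1 was present, Mst87F, at 13.1 to 53.2 adjusted counts. In bulk libraries, fewer cells of a type and less RNA per cell cannot be told apart.

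Compared per kb of exon, most of the main pump subunits stood above most Atg genes. Vha16-1, which makes the ring of proton-binding c subunits, was highest at 3014 adjusted counts per kb over the 9 libraries (range 2263 to 3624). Next came Vha13, the G subunit of the V1 stalk, at 1543 (1375 to 1799), and Atg8a, the ubiquitin-like protein that coats the autophagosome, at 1420.2 (1165 to 1840.3). The ranges of Vha13 and Atg8a overlapped, while that of Vha16-1 lay above both. Then followed 13 Vha genes between 1023 (VhaM8.9) and 502 (VhaSFD) adjusted counts per kb. Only then came the next Atg gene, Atg7, at 462 (213 to 772). Among neighbours in the order of all 35, ranges failed to overlap at 3 steps: after Vha16-1, after Atg8a and after Atg18 (268). Vha44, the gene of the C subunit, stood below that last step at 164 (123 to 196). At the low end stood paralogs of pump subunits, Vha100-4 (16.9 per kb), VhaM9.7-a (12.8), Vha36-3 (8.32), Vha100-3 (3.71) and Vha68-3 (1.78).

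**Figure D1:**
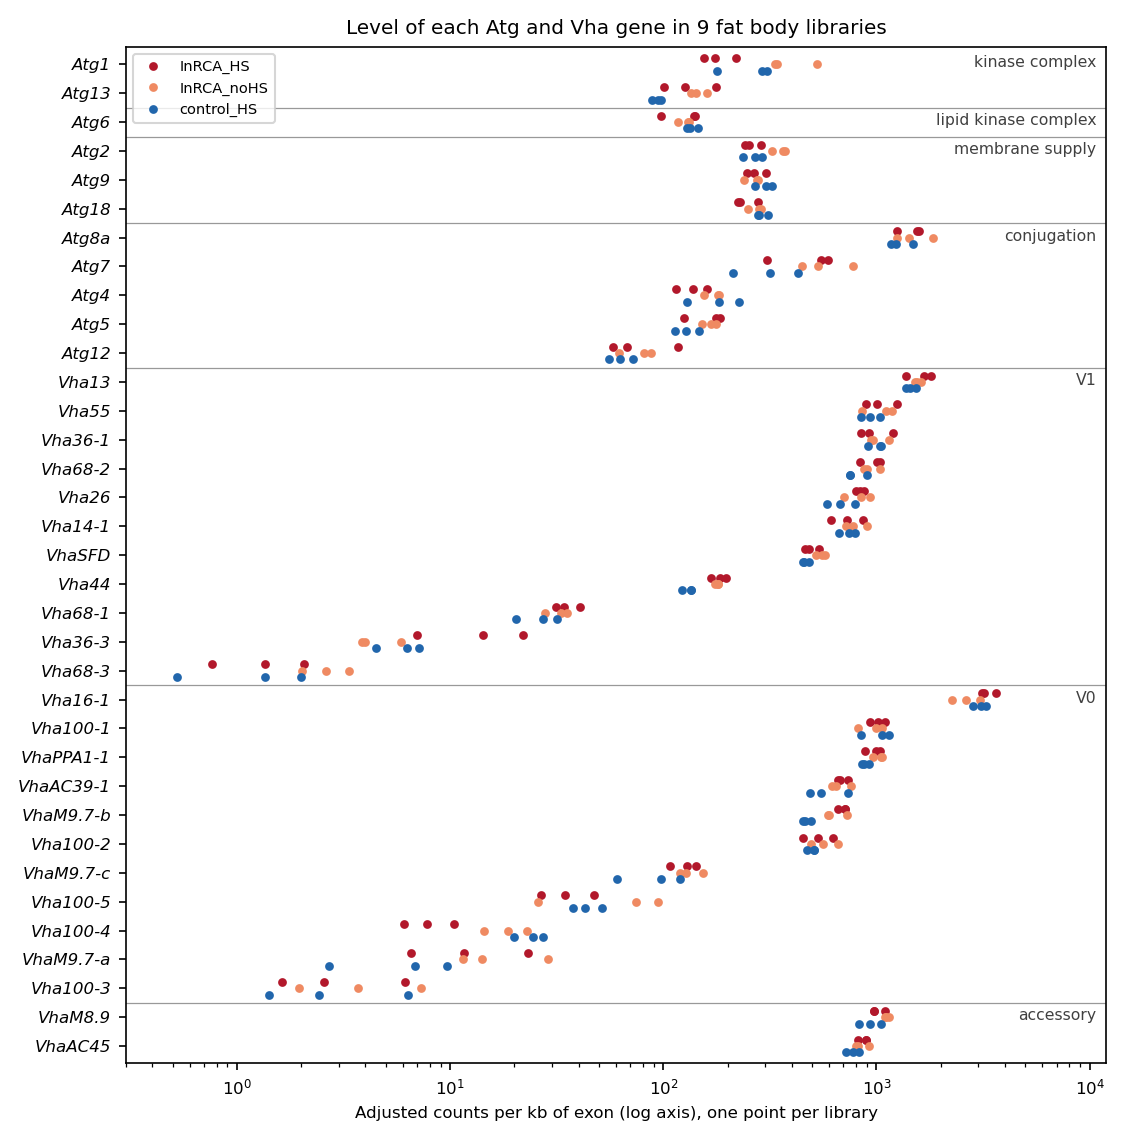
Adjusted counts per kb of exon (log axis) of the 35 members, grouped by role, with 1 point per library and a row of points for each group (InRCA_HS dark red, InRCA_noHS orange, control_HS blue). Most pump genes lie near or above the Atg genes, with Vha16-1 highest, and a tail of pump paralogs reaches down to 1.78 per kb for Vha68-3.

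Atg1 (FBgn0260945), the serine/threonine kinase that starts autophagosome formation, was the Atg gene that passed a test. It had 914, 727 and 641 adjusted counts in InRCA_HS, 2181, 1384 and 1416 in InRCA_noHS, and 1269, 738 and 1209.9 in control_HS. All InRCA_HS libraries lay below all InRCA_noHS libraries, whereas InRCA_HS and control_HS overlapped, since control_HS replicate 2 was as low as the InRCA_HS libraries. Atg1 fell 2.16-fold in InRCA_HS against InRCA_noHS (log2 fold change −1.11, SE 0.25, 95% interval −1.66 to −0.55, adjusted p = 0.0465). The median over all genes in this comparison was −0.14, and relative to it the difference was −0.97. Against control_HS the log2 fold change was −0.47 (adjusted p = 0.356), and in InRCA_noHS against control_HS it was 0.64 (adjusted p = 0.157).

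The Atg1 call lay close to the threshold. Each fit without an InRCA_HS or InRCA_noHS library lost it, while it held without control_HS replicate 1 (adjusted p = 0.0387) or replicate 2 (0.0181). It was lost in 7 of 9 fits without 1 library, with adjusted p of 0.0690, 0.12 and 0.141 without InRCA_HS replicates 1, 2 and 3. The values were 0.145, 0.0889 and 0.104 without InRCA_noHS replicates 1, 2 and 3, and 0.0616 without control_HS replicate 3. In these 9 fits the log2 fold change stayed between −1.25 and −0.89, so its direction was the same in each. With median-ratio scaling it was −0.98 (adjusted p = 0.0747) and with edgeR on recovered reads −1.01 (adjusted p = 0.0683). Summed Malpighian tubule markers were also lower in InRCA_HS (8179.6 to 8569.6 adjusted counts) than in InRCA_noHS (13014 to 15461). That difference lay in Oat (means 4644 in InRCA_HS and 10899.5 in InRCA_noHS). The other 7 markers overlapped in sum, at 2719 to 4377 in InRCA_HS and 2592 to 3670.4 in InRCA_noHS, and Ncc69 among them was higher in InRCA_HS (log2 fold change 0.57, adjusted p = 0.0476). Summed hemocyte markers went the other way, 13804 to 23231 in InRCA_HS and 7836 to 10035 in InRCA_noHS. The largest differences were in Cg25C (means 7164 in InRCA_HS and 2549 in InRCA_noHS) and vkg (4230 and 1178). These 2 of 10 markers alone passed the test (adjusted p = 0.0272 and 0.00958). Of the 10, 8 had a log2 fold change above 0, and lz (−0.10) and PO45 (−0.11) did not. The part of these tissues in the Atg1 result was not tested.

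Of the partners of Atg1 in the same complex, Atg17 and Atg101 are given further below, and the regulatory Atg13 did not follow Atg1. Its adjusted counts were 381, 531 and 303 in InRCA_HS, 483, 428 and 405 in InRCA_noHS, and 294, 267 and 283 in control_HS. Both transgene groups lay above control_HS in all libraries and overlapped each other. The log2 fold change was −0.15 in InRCA_HS against InRCA_noHS (95% interval −0.59 to 0.29, adjusted p = 0.774). It was 0.49 in InRCA_HS against control_HS (adjusted p = 0.225) and 0.64 in InRCA_noHS against control_HS (adjusted p = 0.0820). In the last comparison Atg13 passed without InRCA_HS replicate 2 (adjusted p = 0.0449), a library that enters only through the shared estimate of the spread.

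Atg6, the fly Beclin and the 1 member of the lipid kinase complex that bears the prefix, was nearly level. It had 211, 208 and 145 adjusted counts in InRCA_HS, 198, 194 and 174 in InRCA_noHS, and 192, 217 and 199 in control_HS. The groups overlapped, and all 3 of its 95% intervals lay within 1.5-fold of no difference.

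Among the genes that supply membrane, Atg2, which moves lipid into the growing autophagosome, had the highest counts. It had 1585, 1806 and 1511 adjusted counts in InRCA_HS, 2295, 2034 and 2335 in InRCA_noHS, and 1684, 1483 and 1822 in control_HS. InRCA_noHS lay above both heated groups in all libraries, while the heated groups overlapped. Neither difference passed the test: the log2 fold change was −0.44 in InRCA_HS against InRCA_noHS (SE 0.15, adjusted p = 0.173) and 0.42 in InRCA_noHS against control_HS (SE 0.15, adjusted p = 0.111). Between the heated groups it was −0.02, with a 95% interval of −0.35 to 0.30. Atg9, the membrane protein of the vesicles that seed autophagosomes, averaged 771 ± 79.6 in InRCA_HS, 749 ± 60.9 in InRCA_noHS and 846 ± 79.4 in control_HS. Atg18, which binds the lipid made by the lipid kinase complex, averaged 712 ± 87.4 in InRCA_HS, 797 ± 58.6 in InRCA_noHS and 846 ± 54.4 in control_HS. For both genes the groups overlapped in every comparison.

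In the conjugation machinery, Atg8a had 2624, 2670.2 and 2123 adjusted counts in InRCA_HS, 3119, 2419 and 2123 in InRCA_noHS, and 1974, 2519.9 and 2092 in control_HS. The groups overlapped, and the log2 fold change in InRCA_HS against control_HS was 0.17 (95% interval −0.23 to 0.58, adjusted p = 0.689). Atg7, the activating enzyme for Atg8a and Atg12, varied most among the Atg genes. Its adjusted counts were 1422, 1317 and 736 in InRCA_HS, 1849.7, 1273 and 1069.8 in InRCA_noHS, and 1023, 510.2 and 755 in control_HS. InRCA_noHS lay above control_HS in all libraries and InRCA_HS overlapped both. The log2 fold change of 0.89 in InRCA_noHS against control_HS did not pass (SE 0.32, adjusted p = 0.116), except in the fit without control_HS replicate 1.

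The other conjugation genes gave no call. Atg5, the partner to which Atg12 is joined, averaged 230.0 ± 45.1 in InRCA_HS, 234 ± 17.9 in InRCA_noHS and 184 ± 24.3 in control_HS. Atg12 itself averaged 37.9 ± 15.0 in InRCA_HS, 36.0 ± 6.22 in InRCA_noHS and 29.7 ± 3.73 in control_HS. Atg4, the protease that trims and recycles Atg8a, averaged 563 ± 92.5 in InRCA_HS, 703 ± 58.5 in InRCA_noHS and 730.1 ± 201 in control_HS. In the current annotation 51.4% of the exon bases of Atg4 and 13.6% of those of Atg12 also lie in exons of a gene on the opposite strand (CG4629 and ND-SGDH). The use of strand in counting is not given in the sources used here, so reads of these pairs may be shared.

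Vha100-4 (FBgn0038613), 1 of 5 genes for the V0 a subunit that guides protons through the membrane, is known from the acid-secreting cells of the fly midgut. It had 16.5, 28.5 and 21.3 adjusted counts in InRCA_HS, 50.8, 62.7 and 39.1 in InRCA_noHS, and 66.9, 74.2 and 54.3 in control_HS. Every InRCA_HS library lay below every library of the other groups, which overlapped each other. Vha100-4 fell 2.90-fold in InRCA_HS against control_HS (log2 fold change −1.54, SE 0.28, 95% interval −2.16 to −0.92, adjusted p = 0.0234). Against InRCA_noHS the log2 fold change was −1.17 (adjusted p = 0.0598), and in InRCA_noHS against control_HS it was −0.37 (adjusted p = 0.465).

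The Vha100-4 values rested on 20 to 69 recovered reads per library. The call held with edgeR on these reads (adjusted p = 0.0230) and in 6 of 9 fits without 1 library. It was lost without InRCA_HS replicate 1 (adjusted p = 0.0966), without control_HS replicate 2 (0.0939), without control_HS replicate 3 (0.0638), and in a fit of only the 6 libraries compared (0.0676). Summed Malpighian tubule markers were 8179.6 to 8569.6 adjusted counts in InRCA_HS and 10521 to 12573 in control_HS. That difference lay in Oat (means 4644 in InRCA_HS and 7758 in control_HS), since the other 7 markers summed to 2719 to 4377 in InRCA_HS and 2840.1 to 4064 in control_HS. Summed gut markers overlapped, at 7878 to 21948 in InRCA_HS and 9938 to 11337 in control_HS. Summed muscle markers were 27499.7 to 30809.9 in InRCA_HS and 33665 to 60912 in control_HS. Summed salivary gland markers ran the other way, at 58531 to 180684 in InRCA_HS and 14453 to 40496 in control_HS. The part of these tissues in the Vha100-4 result was not tested. An exon of cona on the opposite strand covers 1.72% of its exon bases.

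Vha100-4 was a minor form of its subunit in the fat body. Per kb, Vha100-1 made up 63.5% ± 3.07 of the summed a subunit RNA in InRCA_HS, 59.2% ± 6.17 in InRCA_noHS and 63.9% ± 3.94 in control_HS. Vha100-2 made up 33.5% ± 3.17 in InRCA_HS, 35.4% ± 3.97 in InRCA_noHS and 31.6% ± 3.69 in control_HS. The share of Vha100-4 was 0.503% ± 0.101 in InRCA_HS, 1.17% ± 0.366 in InRCA_noHS and 1.52% ± 0.312 in control_HS, again without overlap between InRCA_HS and the others. Vha100-5 (1.61% to 5.34% over all libraries) and Vha100-3 (0.0820% to 0.493%) made up the rest. For the main forms, the log2 fold change in InRCA_HS against control_HS was 0.00 for Vha100-1 (95% interval −0.37 to 0.38) and 0.10 for Vha100-2 (−0.27 to 0.47).

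**Figure D2:**
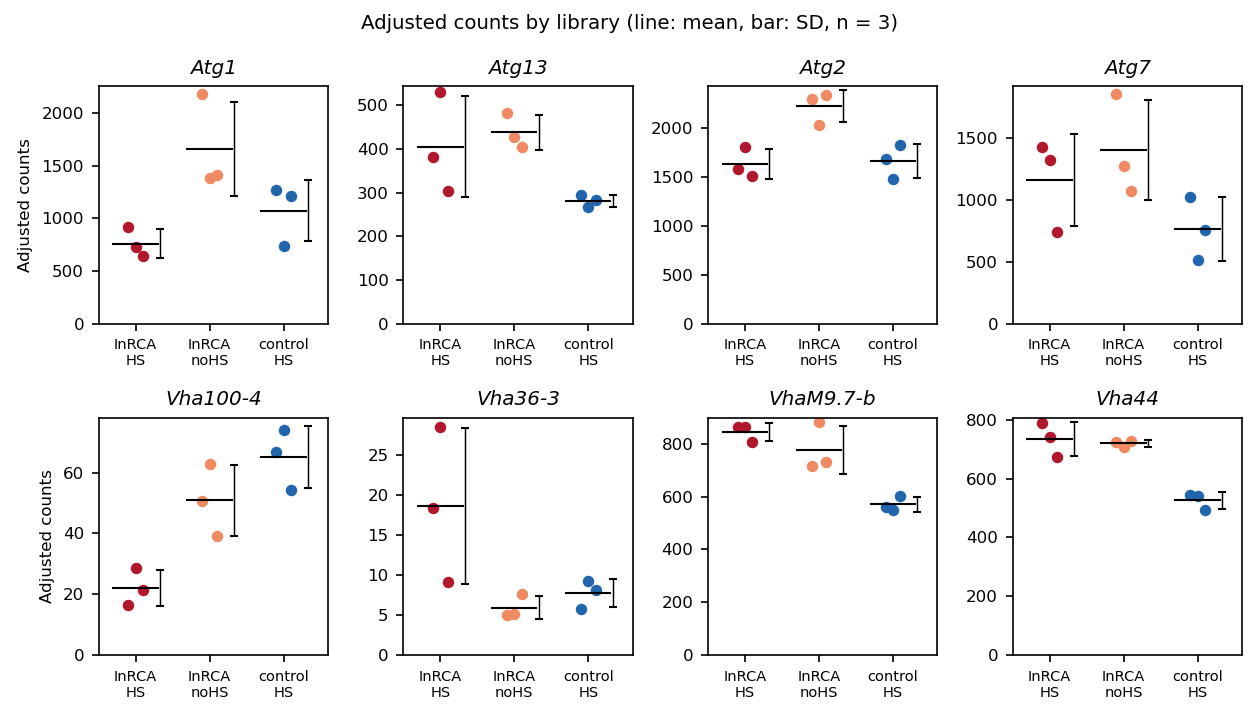
Adjusted counts of 8 genes by library, with InRCA_HS left, InRCA_noHS in the middle and control_HS right. Lines are means and bars SD of 3 libraries, and each axis starts at 0. Atg1 and Vha100-4 are lowest in InRCA_HS, Atg2 is highest in InRCA_noHS, and Atg13, VhaM9.7-b and Vha44 are lowest in control_HS.

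No other V0 gene passed a test. Vha16-1, the c subunit, had 11151, 9854 and 9648 adjusted counts in InRCA_HS, 9428, 6964 and 8119.8 in InRCA_noHS, and 9475, 10093 and 8729 in control_HS. InRCA_HS lay above InRCA_noHS in all libraries, though the log2 fold change of 0.33 did not pass (95% interval −0.06 to 0.72, adjusted p = 0.412). VhaM9.7-b, the main gene of the small e subunit, had 863, 863 and 805 adjusted counts in InRCA_HS, 717, 882 and 730.3 in InRCA_noHS, and 559.5, 548 and 602 in control_HS. Both transgene groups lay above control_HS in all libraries. The log2 fold changes against control_HS were 0.57 for InRCA_HS (SE 0.14, adjusted p = 0.0607) and 0.44 for InRCA_noHS (SE 0.14, adjusted p = 0.0829). For InRCA_HS the test was passed without control_HS replicate 1 (adjusted p = 0.0454) and in no other fit that left out 1 library.

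VhaPPA1-1, the c″ subunit of the proton ring, and VhaAC39-1, the d subunit that couples the ring to the V1 stalk, gave no call. VhaPPA1-1 averaged 1315 ± 109.5 in InRCA_HS, 1386 ± 77.9 in InRCA_noHS and 1194 ± 44.6 in control_HS. VhaAC39-1 averaged 1238 ± 70.1 in InRCA_HS, 1209 ± 129 in InRCA_noHS and 1061 ± 233 in control_HS. The rare e subunit gene VhaM9.7-a had the largest log2 fold change of all members in InRCA_noHS against control_HS, 1.34, but on 2 to 23 reads per library and without a call (SE 0.55, adjusted p = 0.174). Its adjusted counts were 8.26, 4.66 and 16.5 in InRCA_HS, 9.99, 20.5 and 8.15 in InRCA_noHS, and 1.91, 6.83 and 4.85 in control_HS.

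In the V1 sector, Vha55, the B subunit that shapes the ATP-binding head together with subunit A, had the highest counts. Its values were 2491, 3468 and 2796 in InRCA_HS, 3096, 2395 and 3287 in InRCA_noHS, and 2907, 2611 and 2353 in control_HS. The groups overlapped in every comparison, and the log2 fold change in InRCA_HS against control_HS was 0.15 (95% interval −0.26 to 0.55). Vha68-2 supplied 95.8% to 97.2% of the catalytic A subunit RNA per kb in all libraries, and averaged 2648 ± 302 in InRCA_HS, 2588 ± 257 in InRCA_noHS and 2220.0 ± 245 in control_HS.

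Vha44, the C subunit that clamps V1 onto V0 and leaves when the pump comes apart, was the V1 gene nearest to a call. It had 789, 742 and 674 adjusted counts in InRCA_HS, 725, 706 and 728 in InRCA_noHS, and 543, 541 and 493 in control_HS. Both transgene groups lay above control_HS in all libraries and overlapped each other. The log2 fold changes against control_HS were 0.48 for InRCA_HS (SE 0.13, adjusted p = 0.0818) and 0.45 for InRCA_noHS (SE 0.13, adjusted p = 0.0646). Without control_HS replicate 1 both passed, with adjusted p of 0.0496 for InRCA_HS and 0.0470 for InRCA_noHS. An opposite-strand exon of Hmgs covers 3.68% of its exon bases.

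Vha36-3, a rare version of the D subunit of the rotor, had the largest positive difference between InRCA_HS and either other group. Its adjusted counts were 18.4, 28.5 and 9.07 in InRCA_HS, 5.0, 5.15 and 7.62 in InRCA_noHS, and 5.80, 9.22 and 8.11 in control_HS. InRCA_HS lay above InRCA_noHS in all libraries, on 3 to 30 reads per library. Neither difference passed: the log2 fold change was 1.39 against InRCA_noHS (SE 0.44, adjusted p = 0.155) and 1.06 against control_HS (SE 0.44, adjusted p = 0.228). Its share of the D subunit RNA per kb was 1.40% ± 0.570 in InRCA_HS, 0.443% ± 0.0570 in InRCA_noHS and 0.596% ± 0.144 in control_HS, the rest being Vha36-1.

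The remaining V1 genes with means of at least 100 were Vha13, Vha14-1 (the F subunit), Vha26 (the E subunit of the stalk), Vha36-1 and VhaSFD (the regulatory H subunit). For all 8 V1 genes above this level, the 95% interval in InRCA_HS against InRCA_noHS lay within 1.5-fold of no difference. Of all 6198 genes with a mean of at least 100, 32.9% had such an interval. Those 6198 had a median level of 398 adjusted counts and these 8 V1 genes of 1438. The part of level in this was not tested. The log2 fold changes of these 8 in that comparison ran from −0.15 to 0.04. Vha26 lay above control_HS in all InRCA_HS libraries, with means of 2451 ± 104 in InRCA_HS, 2423 ± 344 in InRCA_noHS and 2009.8 ± 304 in control_HS, and did not pass (adjusted p = 0.377 in InRCA_HS against control_HS).

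The accessory proteins, which help the pump to assemble and reach its membrane, had narrow ranges. VhaAC45 had 1789.7, 1641 and 1803 adjusted counts in InRCA_HS, 1655, 1620.2 and 1867 in InRCA_noHS, and 1671, 1556 and 1442 in control_HS, overlapping in every comparison. VhaM8.9 averaged 1491 ± 108 in InRCA_HS, 1637 ± 39.1 in InRCA_noHS and 1379 ± 166 in control_HS. For both genes, all 3 intervals lay within 1.5-fold.

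**Figure D3:**
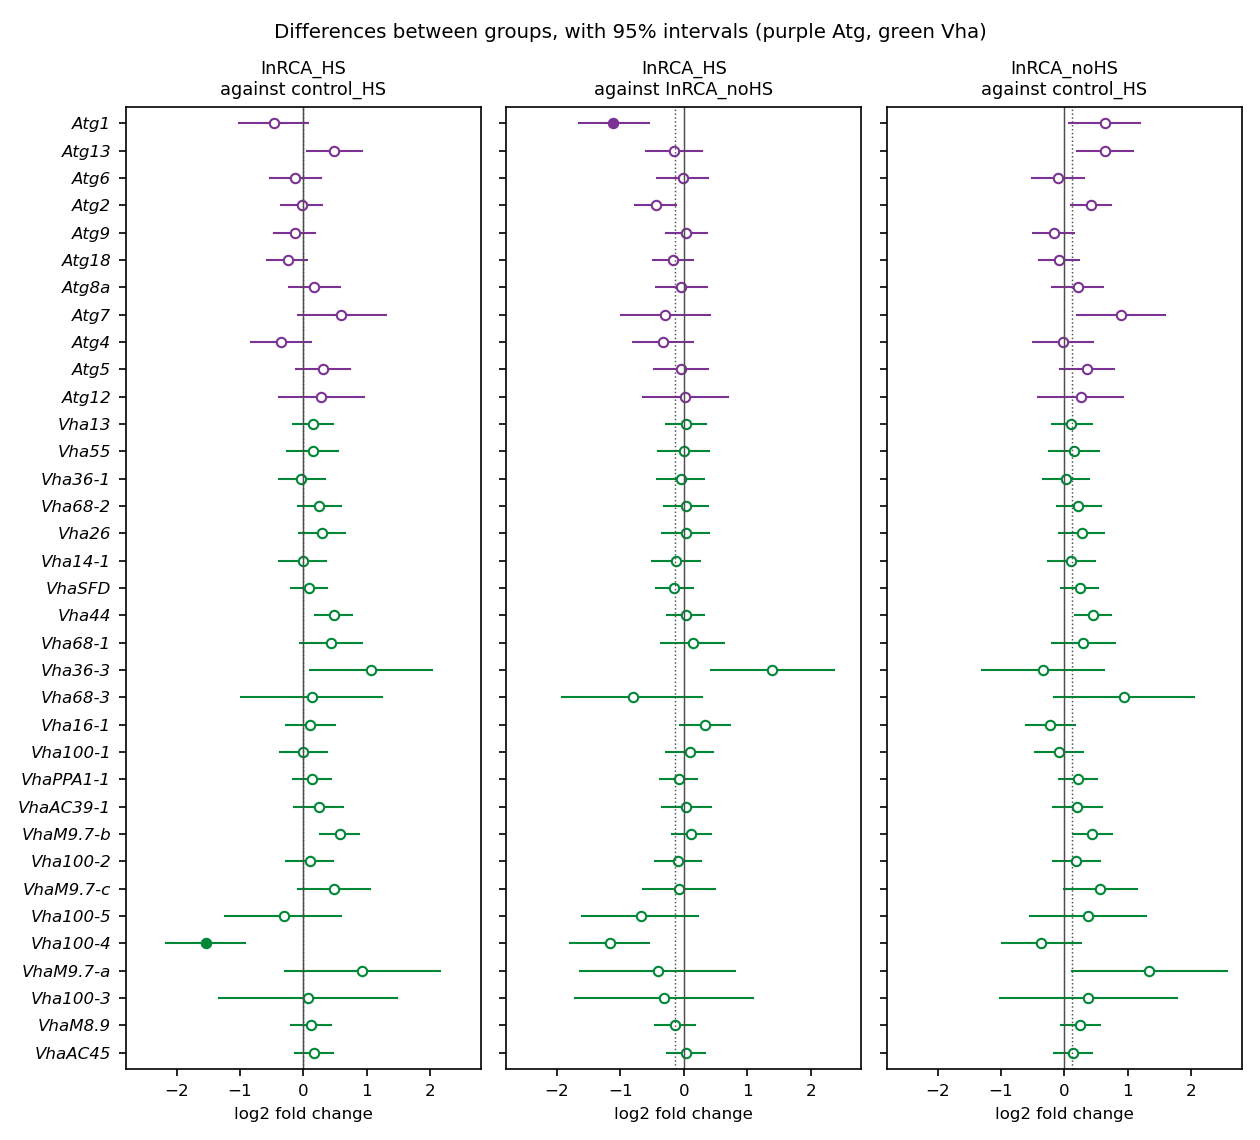
Log2 fold change of each member (point) with its 95% interval (line) in the 3 comparisons, Atg genes in purple above and Vha genes in green. Filled points passed the test, Vha100-4 on the left and Atg1 in the middle, and the dotted line is the median of all genes (0.00, −0.14 and 0.12).

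Autophagy factors and pump subunits are set side by side as a description, without a test. In InRCA_HS against control_HS the median log2 fold change was −0.02 for the 11 Atg genes, with 5 above 0, and 0.14 for the 24 Vha genes, with 20 above 0. Over all genes the median was 0.00 and 50.2% were above 0. The 95% interval lay within 2-fold of no difference for 9 of 11 Atg and 17 of 24 Vha genes, against 58.6% of all genes. It lay within 1.5-fold for 5 Atg and 11 Vha genes, against 20.7% of all genes. Among genes with a mean of at least 100, this held for 5 of 10 Atg genes, 11 of 17 Vha genes and 32.5% of all 6198. The median level of these sets was 787, 1455 and 398 adjusted counts. The part of level in these shares was not tested, here or below.

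In InRCA_HS against InRCA_noHS, Atg genes had a median of −0.15, with 2 of 11 above 0, and Vha genes of −0.03, with 11 of 24 above 0. The median over all genes was −0.14, and 33.4% were above 0. The Atg median thus lay close to that of the table and the Vha median above it. Intervals lay within 2-fold for 10 Atg and 18 Vha genes, against 60.3% of all genes, and within 1.5-fold for 5 Atg and 15 Vha genes, against 21.3%. Among genes with a mean of at least 100, those within 1.5-fold were 5 of 10 Atg genes, 15 of 17 Vha genes and 32.9% of all 6198. In InRCA_noHS against control_HS the medians were 0.26 for Atg genes, with 7 of 11 above 0, and 0.22 for Vha genes, with 20 of 24 above 0. Over all genes the median was 0.12 and 60.9% were above 0. Both families' medians lay above that of the table. Here 8 Atg and 18 Vha genes had intervals within 2-fold, against 54.7% of all genes, and 4 and 11 within 1.5-fold, against 18.5%. With means of at least 100, those within 1.5-fold were 4 of 10 Atg genes, 11 of 17 Vha genes and 28.9% of all 6198. These medians moved with the scaling: with median-ratio scaling the median of all genes was 0.02 in InRCA_HS against control_HS, −0.02 in InRCA_HS against InRCA_noHS and 0.01 in InRCA_noHS against control_HS. The Atg median was then −0.02 in InRCA_HS against InRCA_noHS and 0.16 in InRCA_noHS against control_HS, and the Vha median in InRCA_HS against InRCA_noHS was 0.10.

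Groups that do not overlap were counted as well. In InRCA_HS against control_HS, 4 members lay entirely above and 1 entirely below, where 9.53% and 11.0% of all genes did. In InRCA_HS against InRCA_noHS, 2 lay above and 3 below, against 7.52% and 15.8% of all genes. In InRCA_noHS against control_HS, 12 of 35 lay above and 0 below, against 17.2% and 10.4% of all genes. These 12 were 5 Atg genes (Atg1, Atg2, Atg5, Atg7 and Atg13) and 7 Vha genes (Vha44, Vha68-3, VhaM8.9, VhaM9.7-a, VhaM9.7-b, VhaPPA1-1 and VhaSFD).

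**Figure D4:**
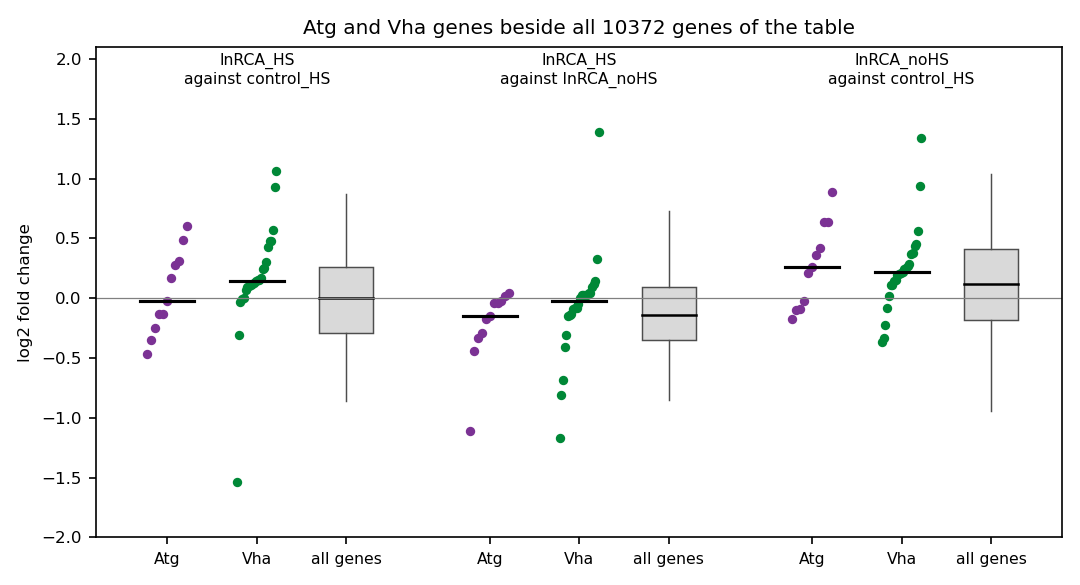
Log2 fold changes of the 11 Atg genes (purple) and 24 Vha genes (green) beside those of all 10372 genes, in the 3 comparisons. Each point is 1 member and the thick line the median, and grey boxes give the quartiles of all genes with whiskers for the central 90%. In InRCA_HS against InRCA_noHS most Vha genes lie close to 0 (median −0.03).

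Added up, the 24 pump genes held more adjusted counts than the 11 autophagy genes. Summed Vha values were 35289, 36625 and 34571 adjusted counts in InRCA_HS, 35142, 30868 and 34958 in InRCA_noHS, and 32739, 32816 and 30794 in control_HS. All InRCA_HS libraries lay above all control_HS libraries. As a share of all adjusted counts of a library, they were 0.332%, 0.315% and 0.285% in InRCA_HS, 0.253%, 0.263% and 0.263% in InRCA_noHS, and 0.280%, 0.236% and 0.198% in control_HS. Vha16-1 is the largest term of these sums. Summed Atg values were 9593, 9549 and 7651 in InRCA_HS, 12761, 10129 and 10052 in InRCA_noHS, and 8863, 8366 and 9209 in control_HS. In these sums all InRCA_noHS libraries lay above both heated groups, which overlapped each other. As shares, Atg genes took 0.0903%, 0.0821% and 0.0630% in InRCA_HS, 0.0918%, 0.0861% and 0.0757% in InRCA_noHS, and 0.0757%, 0.0602% and 0.0594% in control_HS. On this scale InRCA_HS overlapped both other groups.

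Replicates of a group varied less for these genes than for the table as a whole. The SD within groups on the log2 scale had a median of 0.22 over Atg genes and 0.19 over Vha genes, against 0.31 over all genes. Among genes with a mean of at least 100, the medians were 0.22 for 10 Atg genes, 0.16 for 17 Vha genes and 0.25 for all 6198. These sets differed in level, as given above, and the part of level was not tested. The highest of the 9 libraries was a median of 1.47 times the lowest for these 17 Vha genes, from 1.24 for VhaPPA1-1 to 3.66 for Vha100-5. The 7 Vha genes below this level spanned 1.99 to 10.7 times. As a description over the 9 libraries, which share groups and depth, Pearson's r between pairs of members with means of at least 100 had a median of 0.23 among Atg genes (45 pairs) and 0.26 among Vha genes (136 pairs), from −0.74 to 0.91 among the Vha pairs.

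The genes whose log2 values were most like those of the called members were found over the same 9 libraries, which again share groups. For Vha100-4 they were Obp99a (r = 0.95), CG6282 (0.93), boi (0.92), gbb (0.91) and RpS21 (0.91). For Atg1 they were Gug (r = 0.97), RhoGAP92B (0.96), CG31559 (0.96), rgr (0.95) and CG4822 (0.94).

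Another 9 genes carry Atg or Vha names today but older symbols in the table, and 0 of them passed with limma in any comparison (lowest adjusted p 0.112). At an unadjusted p under 0.05 there were 0 in InRCA_HS against control_HS and 3 in each of the other comparisons, and edgeR called 0. Of all 10372 genes, 1899 had such a p in InRCA_HS against control_HS. It was 1540 in InRCA_HS against InRCA_noHS and 2453 in InRCA_noHS against control_HS. These 9 renamed genes include the other parts of the Atg1 complex. Atg17 (CG1347), the scaffold, averaged 1037 ± 24.9 in InRCA_HS, 1381 ± 171 in InRCA_noHS and 1122 ± 122 in control_HS, and Atg101 (CG7053) averaged 129 ± 12.5 in InRCA_HS, 169 ± 27.1 in InRCA_noHS and 139 ± 38.6 in control_HS. Both were lower in InRCA_HS than in InRCA_noHS in all libraries, as were 15.8% of all genes. Neither passed there: the log2 fold change was −0.41 for Atg17 (adjusted p = 0.222) and −0.38 for Atg101 (adjusted p = 0.462). Atg3 (Aut1), the enzyme that hands Atg8a to its lipid, averaged 457 ± 54.7 in InRCA_HS, 519.8 ± 31.6 in InRCA_noHS and 389 ± 12.3 in control_HS. With these included, 19 Atg genes had a median of −0.03 in InRCA_HS against control_HS, of −0.17 in InRCA_HS against InRCA_noHS, and of 0.26 in InRCA_noHS against control_HS. Annotated paralogs such as Vha16-2, Vha14-2, Vha36-2 and Atg8b were not analysed here.

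Partners of the pathway without the prefix were read against the same shares of all genes, 2.43% and 2.55% in the comparisons of InRCA_HS and 7.03% in InRCA_noHS against control_HS. Of 18 autophagy partners in the table (of 26 names listed), 0 passed with limma in either comparison of InRCA_HS, and edgeR called 0. An unadjusted p under 0.05 was found for 3 of them against control_HS and 0 against InRCA_noHS. Of all 10372 genes, 1899 and 1540 had one in these comparisons. Between InRCA_noHS and control_HS 1 of 18 passed: Buffy, a Bcl-2 family gene, was higher in InRCA_noHS than in control_HS (means 166 ± 39.5 and 38.6 ± 16.4, log2 fold change 2.13, adjusted p = 0.0327). The Buffy call held in 4 of 9 fits without 1 library, and was lost without any of the InRCA_noHS libraries, control_HS replicate 2 or control_HS replicate 3 (adjusted p up to 0.130). ref(2)P, the fly p62 that carries cargo into autophagosomes, averaged 1137 ± 135 in InRCA_HS, 1296 ± 219 in InRCA_noHS and 1519.8 ± 304 in control_HS, with no call. Of 17 genes for V-ATPase assembly and the link to TOR, InR alone passed, in all 3 comparisons. Mitf, which in flies controls V-ATPase genes, averaged 386 ± 84.9 in InRCA_HS, 432 ± 117 in InRCA_noHS and 354 ± 15.4 in control_HS, with no call.

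Lysosomal enzymes and membrane proteins work downstream of both families. Of 30 in the table (of 34 names listed), 2 passed in InRCA_HS against control_HS, 3 in InRCA_HS against InRCA_noHS and 4 in InRCA_noHS against control_HS. Of all genes, 2.43%, 2.55% and 7.03% passed. An unadjusted p under 0.05 was found for 11, 12 and 10 of the 30. Of all 10372 genes, 1899, 1540 and 2453 had one. From this list 1 gene rose and 1 fell in InRCA_HS against control_HS: CG8596 (Cln7, a lysosomal membrane protein; log2 fold change 1.15, adjusted p = 0.0391) and Npc2a (a sterol-binding protein; −0.85, adjusted p = 0.0332). Against InRCA_noHS, ClC-c, a chloride channel family gene, rose in InRCA_HS (0.92, adjusted p = 0.0127). The alpha-mannosidase genes CG5322 (LManI, −1.14, adjusted p = 0.00748) and CG6206 (LManII, −0.86, adjusted p = 0.0416) fell there. LManI averaged 1181 ± 179 in InRCA_HS, 2593 ± 267 in InRCA_noHS and 1175 ± 211 in control_HS, so that the heated groups were alike in mean. In InRCA_noHS against control_HS, LManI (1.15, adjusted p = 0.00493), LManII (0.81, adjusted p = 0.0308) and Cln7 (1.0, adjusted p = 0.0347) rose. Hexo2, a hexosaminidase gene, fell in that comparison (−0.88, adjusted p = 0.0336).

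Of these lysosomal calls, those of LManI held in all 9 fits without 1 library, in both comparisons (highest adjusted p 0.0436 in InRCA_HS against InRCA_noHS). The ClC-c call held in 7, and was lost without InRCA_noHS replicate 2 (adjusted p = 0.0643) or replicate 3 (0.0536). The calls of InRCA_HS against control_HS were less stable: Npc2a held in 1 of 9 fits, the one without control_HS replicate 1, and Cln7 in 2, those without InRCA_HS replicate 3 or control_HS replicate 1. The LManII call against InRCA_noHS held in 1 fit, without control_HS replicate 1, and was not made by edgeR (adjusted p = 0.0792). In InRCA_noHS against control_HS, LManII, Cln7 and Hexo2 each held in 4 of 9 fits, and were lost without any 1 of the InRCA_noHS libraries or without control_HS replicate 2 or 3 (adjusted p up to 0.137). With edgeR, Hexo2 passed there, while LManII (adjusted p = 0.0577) and Cln7 (0.0618) did not. Another 4 genes of the list passed with edgeR and not with limma. Ect3, a beta-galactosidase gene, passed in InRCA_HS against control_HS (edgeR log2 fold change −1.53, adjusted p = 0.0411). Cp1, the gene of cathepsin L (1.3, adjusted p = 0.0298), spin (0.80, adjusted p = 0.0371) and Npc2b (0.99, adjusted p = 0.0467) passed in InRCA_HS against InRCA_noHS. For these genes limma gave adjusted p of 0.0545 (Cp1) to 0.0912 (Npc2b).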

How the data were processed

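The deposited values are a signal per gene and library, and their steps show gene counts that the authors adjusted to a common library size. FPKM had been assumed, because Cufflinks 1.1.0 stands in the submitters' processing notes, beside Bowtie 0.12.7, TopHat 1.3.2 and the build dm3, without order or roles. Which tool counted reads, with which annotation and whether by strand, is not given in the sources used here. The same test on log2 values was kept. Undoing a negative binomial quantile adjustment with 1 factor per library and a dispersion of 0.068 gave whole reads, to within 0.1, for 99.5% of 38615 values up to 100. These reads entered edgeR 4.0.16 as an alternative.

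Groups came from the sample titles. The log2(value + 1) values of all 9 libraries were fitted with limma 3.58.1 in R 4.3.3 (3 group means, trended variance, Benjamini-Hochberg over all genes, threshold 0.05). A minimum mean of 1 removed 0 genes. Recovery and tests were also tested on simulated data. Same-numbered libraries did not deviate together, so numbers were not used as pairs. Within groups, libraries differed by far more than counting noise.

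Members and lists were chosen with earlier results of these data known, and no test was made over a list. Genes named were InR, called members, the member with the highest mean in each role class and those with the largest differences, then called genes of the lists. Lengths are the summed exons of an Ensembl annotation of BDGP6, another build than that of the files, matched for 30 members by ID and 5 by symbol. Levels per kb are therefore approximate. Python 3.11.15 with pandas 2.3.3, numpy 2.4.6, matplotlib 3.10.9 and scipy 1.17.1 served for tables and figures.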

Additional observations from a re-analysis of the deposited data

How the results depend on the processing

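Alternatives were pseudocounts of 0.1 and 5, a minimum mean of 20 or none, median-ratio scaling, quantile normalization, edgeR on recovered reads, a fit of 6 libraries, the replicate number as a block, and leaving out each library. In all 19 fits, the reported one included, Vha100-4 in InRCA_HS against control_HS and Atg1 in InRCA_HS against InRCA_noHS kept their direction. Family medians near 0 changed sign in some, as given here. For InRCA_HS against control_HS, the fit of 6 libraries called 56 genes, against 252 with all 9, and 0 members. Fits without 1 library gave 56 to 961 genes, 0 to 3 members (3 without control_HS replicate 1: Vha100-4, Vha44 and VhaM9.7-b), Atg medians of −0.07 to 0.05 and Vha medians of 0.11 to 0.21. For InRCA_HS against InRCA_noHS, median-ratio scaling and edgeR called 0 members. They gave Atg medians of −0.02 and 0.00, and Vha medians of 0.10 with each. Fits without 1 library gave 106 to 336 genes, 0 to 1 members, Atg medians of −0.27 to 0.04 and Vha medians of −0.05 to 0.02. For InRCA_noHS against control_HS, the Atg median was 0.16 with median-ratio scaling and with edgeR, and the Vha median 0.10 with edgeR. Fits without 1 library gave 267 to 1421 genes, 0 to 2 members (Atg7 and Vha44 without control_HS replicate 1), Atg medians of 0.18 to 0.34 and Vha medians of 0.14 to 0.24. The cause of these moves was not tested.

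Over all genes, 68.7% of the calls in InRCA_HS against InRCA_noHS were higher, but 81.3% with median-ratio scaling and 81.6% with edgeR. In InRCA_noHS against control_HS it was 46.2%, but 29.8% with median-ratio scaling, 35.4% with quantile normalization and 27.1% with edgeR. Some alternative turned the sign of 9 of 35 members in InRCA_HS against control_HS, 20 in InRCA_HS against InRCA_noHS and 6 in InRCA_noHS against control_HS, none with an adjusted p under 0.675. With the replicate number as a block, 186 genes were called in InRCA_HS against control_HS, 186 in InRCA_HS against InRCA_noHS and 551 in InRCA_noHS against control_HS. Member calls were 1 (Vha100-4, adjusted p = 0.0294), 1 (Atg1, adjusted p = 0.0288) and 0. The numbers do not pair the libraries: same-numbered deviations had r of −0.245 to 0.121, and in 4 of 18 cases a library correlated best with its own number. Of the 7 Vha genes with means under 100, 0 had an interval within 1.5-fold, and the part of depth in this was not tested.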
